A study of Rattus norvegicus with 13 samples.

Results

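Transcripts of 10 regulators of energy metabolism were measured in the left ventricle of rats labelled as overexpressing the β3-adrenergic receptor (the ADBR3 group, in the spelling of the labels) and of wild-type (WT) rats. The regulators were the peroxisome proliferator-activated receptors Ppara, Ppard and Pparg, their partner Rxra, the coactivators Ppargc1a and Ppargc1b (PGC-1α and PGC-1β), the oestrogen-related receptors Esrra, Esrrb and Esrrg, and the nuclear respiratory factor Nrf1. They were chosen by name: every spot that is not a control and whose gene name equals 1 of the 10 was taken, which gave 12 of the 30367 probes and 10 of the 26115 gene names on the array. The ADBR3 group consisted of 5 male rats aged 45 weeks (hearts 1, 3, 5, 6 and 7) on 7 arrays, and the WT group of 4 male rats of the same age (hearts 1, 3, 4 and 6) on 6 arrays. Hearts 1 and 2 of each group are a pair of labelings of the RNA of 1 rat and were averaged, while ADBR3 heart 4 and WT heart 5 are repeat hybridizations whose partner array the labels do not name. How the receptor was overexpressed, by which promoter and in which cells, and the rats' strain are not given in the sources used here.

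PPARs are nuclear receptors that bind fatty acids and, as dimers with a retinoid X receptor, switch on genes of fatty acid uptake and oxidation. PGC-1 proteins do not bind DNA themselves but are recruited by PPARs, oestrogen-related receptors and nuclear respiratory factors, and through them drive genes of mitochondria and of the respiratory chain. In the heart, an organ that runs mainly on fatty acids, PPARα, PGC-1α and ERRα are known as the central regulators of fuel use.

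The sequences that the array reads for both coactivators and for the common dimer partner are given first, since the comparison of these genes rests on 1 probe each. Each is 60 bases long, lies in protein-coding sequence, and is written 5′ to 3′ in the sense of the transcript from the deposited scanner files, with rn4 coordinates. The probe of Ppargc1a (chr14:64365667-64365726, plus strand) and that of Ppargc1b (chr18:57280683-57280742, minus strand) both lie in the stretch that encodes the RNA recognition motif of the coactivator, and that of Rxra (chr3:6678240-6678299, plus strand) reads the retinoid X receptor α.
Ppargc1a probe: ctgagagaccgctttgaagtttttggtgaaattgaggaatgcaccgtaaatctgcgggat
Ppargc1b probe: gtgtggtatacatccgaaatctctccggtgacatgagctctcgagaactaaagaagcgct
Rxra probe: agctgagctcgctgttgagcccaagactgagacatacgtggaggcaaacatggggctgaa

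Promoter windows of RefSeq (build GRCr8, 250 bases before to 50 after the start of a gene) were available for 9 of the 10 regulators, all but Ppard, and were searched on both strands for 3 exact motifs. The PPAR and RXR element (AGGTCA repeated in the same direction with 1 base between the copies) was in 0 of the 9, against 0.0621% of 27370 genes with a window. The ERR element TCAAGGTCA, which ends in the same AGGTCA, was in 0 of the 9, against 0.442% of all. The NRF1 core GCATGCGC was in 2 of the 9, those of Esrra and Ppara, against 2.78% of all. The 250 bases upstream of both starts are shown because they are the windows of regulators that hold a motif of another regulator of the group; capitals mark the core. In Esrra (chr1:213543306-213543555, minus strand) the core begins 115 bases before the start, and in Ppara (chr7:118712357-118712606, plus strand) it reads on both strands in overlapping copies that begin 100 and 98 bases before the start.
Esrra upstream: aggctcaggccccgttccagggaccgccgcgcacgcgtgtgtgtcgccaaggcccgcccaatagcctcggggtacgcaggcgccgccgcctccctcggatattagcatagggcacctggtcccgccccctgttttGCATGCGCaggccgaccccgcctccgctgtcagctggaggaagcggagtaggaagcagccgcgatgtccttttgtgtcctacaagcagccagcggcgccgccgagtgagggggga
Ppara upstream: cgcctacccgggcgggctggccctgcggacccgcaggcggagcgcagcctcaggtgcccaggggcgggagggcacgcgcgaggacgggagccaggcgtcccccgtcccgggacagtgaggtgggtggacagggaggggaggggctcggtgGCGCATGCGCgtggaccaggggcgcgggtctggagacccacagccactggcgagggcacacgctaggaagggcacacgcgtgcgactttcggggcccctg
Both stretches are rich in G and C, 68.8% in Esrra and 76.0% in Ppara, against a median of 51.6% over all upstream windows. The motif is also rich in these letters, and a match describes the sequence only, not binding.

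Across the 13 arrays, the 75th percentile of the processed signal lay between 760.4 and 908.7, between 55.2% and 67.8% of spots were well above background, and 0 spots were saturated. The arrays came from 5 slides and were scanned on 2 days. The ADBR3 pair of labelings lay on slides 1 and 5 and was scanned on different days. The WT pair lay on slide 1 and was scanned on the same day. Differences between labelings given below thus also hold slide and day in the ADBR3 group, but not in the WT group. The probe for rat Adrb3 was well above background on 1 of 7 ADBR3 arrays, heart 6, and on 0 of 6 WT arrays. It does not check the labels, that of heart 6 included, since the source of that signal was not tested. Groups are named here by their labels. Cardiomyocyte markers fitted the labelled tissue: 9 of 9 were tested, with a mean log2 level per rat of 7.78 to 7.90 in ADBR3 hearts and 7.68 to 7.97 in WT hearts. Levels below are on a log2 scale, as processed signal relative to the 75th percentile of its array, which is 0 on that scale. Levels of different probes cannot be set against each other, because probes differ in how strongly they bind. In tissue RNA, fewer cells of a type and less RNA per cell cannot be told apart.

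None of the tested regulators differed between ADBR3 and WT hearts past the threshold. Of the 10 genes, 8 were tested, and their 10 probes were well above background on all 13 arrays. Of these 8 genes, 0 passed an adjusted p of 0.05 in the limma fit with Benjamini-Hochberg adjustment, where 0.00651% of the 15367 genes tested did. Likewise 0 of the 8 had an unadjusted limma p under 0.05, against 9.44% of all genes, and in 0 of the 8 were the 2 groups free of overlap, against 3.52% of all genes. Their adjusted p-values from limma lay between 0.690 and 0.988. The mean was higher in ADBR3 hearts for 3 of the 8 genes and lower for 5, with a median difference of -0.036, while 46.7% of all genes were higher with a median difference of -0.0089. Exact two-sided permutation tests over all splits of the 9 rats into 5 and 4 gave p between 0.143 and 0.952 for the 10 probes, and could not have gone below 0.00794. The values below say how large a difference these 9 rats could still hold. Differences, standard errors, intervals and adjusted p-values of single probes come from the limma fit with Benjamini-Hochberg adjustment over 17587 probes, in which 0 of the 10 probes passed 0.05 against 0.00569% of all, and 0 of the 10 had an unadjusted p under 0.05 against 9.2% of all.

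**Figure D1:**
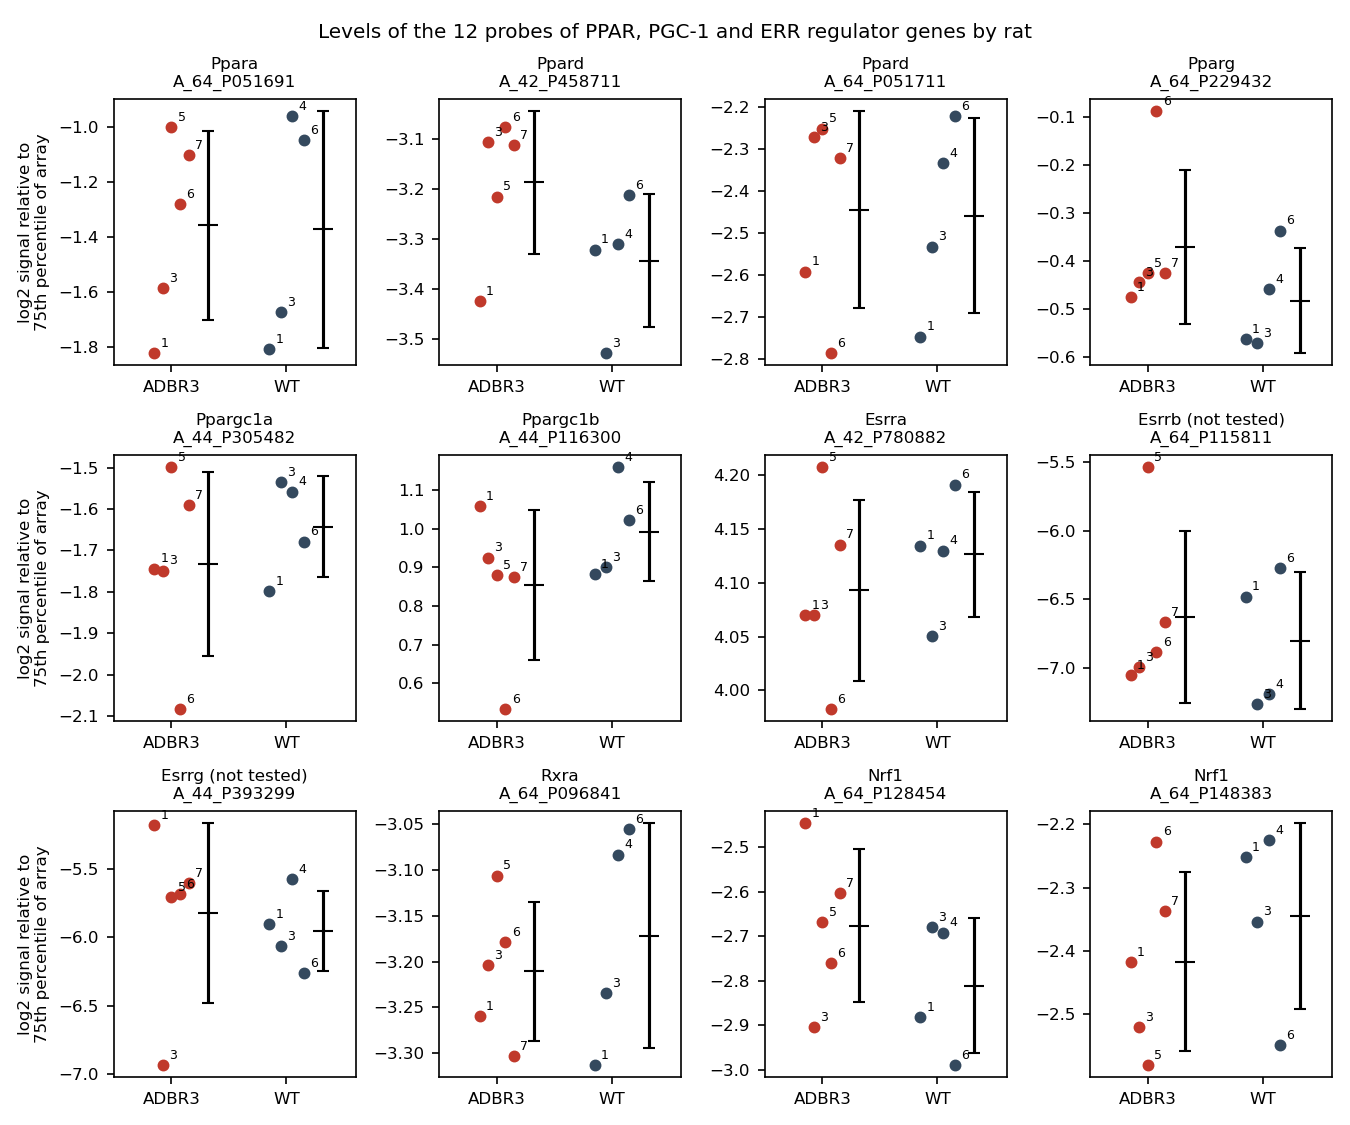
Levels of the 12 probes by rat. Each panel shows log2 processed signal relative to the 75th percentile of the array (vertical axis, own range in each panel) in 5 ADBR3 rats (red, left) and 4 WT rats (dark blue, right), with heart numbers beside the points and the mean ± SD beside each group. The groups overlap for all 10 tested probes; Ppara spans 0.861 log2 units over the 9 rats and Esrra 0.226.

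Ppara encodes PPARα, the fatty acid sensor that is most abundant in tissues with high fatty acid oxidation such as heart and liver. Its probe (rn4 chr7:123807031-123807090) read -1.82, -1.59, -1.0, -1.28 and -1.10 in ADBR3 hearts 1, 3, 5, 6 and 7, against -1.81, -1.67, -0.96 and -1.05 in WT hearts 1, 3, 4 and 6. Hearts 1 and 3 were the lowest of their group on both sides, and the groups covered nearly the same range. The means were -1.36 ± 0.342 in ADBR3 hearts (SD, n = 5) and -1.37 ± 0.430 in WT hearts (SD, n = 4). The difference was 0.01 log2 units (SE 0.228, 95% confidence interval -0.50 to 0.53, limma adjusted p = 0.989), so that a ratio anywhere from 0.707 to 1.44 lies within the interval. Ppara varied more between rats of 1 group than most genes, with an SD within groups of 0.382 where the median gene had 0.133, and 92.0% of genes had an SD no larger.

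The spread of Ppara between rats was larger than the difference between labelings of 1 rat. Both labelings of heart 1 differed by 0.190 in the ADBR3 group and by 0.0527 in the WT group. The repeat hybridizations, which the labels tie to no heart, read -1.75 for ADBR3 heart 4 and -0.97 for WT heart 5. Over all tested probes each was closest to 1 array of its own group, ADBR3 heart 3 at -1.59 and WT heart 4 at -0.96. Each repeat fell on the same side of the spread as the array it resembled. That likeness is in part built in, because Ppara was among the probes used to find the closest array. Of the macrophage and myeloid markers, the sum of linear signals ordered the hearts in part like Ppara. That sum over the 7 markers, relative to the 75th percentile and made up mostly of Lyz2, was lowest in ADBR3 heart 1 (11.7), WT heart 1 (12.1), ADBR3 heart 3 (12.4) and WT heart 3 (13.7), and lay between 13.8 and 17.6 in the other 5 hearts. Its range was 11.7 to 17.6 in ADBR3 hearts and 12.1 to 17.5 in WT hearts. The mean log2 level of the 7 markers kept that order only in part. Heart 1 was lowest in both groups, at -1.60 in ADBR3 and -1.51 in WT. WT heart 3, at -1.37, lay below WT hearts 4 (-1.12) and 6 (-1.11). ADBR3 heart 3, at -1.31, lay above ADBR3 hearts 5 (-1.37) and 7 (-1.41). Other markers of the list did not share the order of the sum: Csf1r was highest of all in ADBR3 heart 3, at -1.36, and Ptprc in WT heart 3, at -0.94. Their part in the spread of Ppara was not tested.

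Ppard encodes PPARδ, the ubiquitous member of the family, which drives fatty acid oxidation in striated muscle. Its brighter probe (rn4 chr20:6542932-6542991) read -2.59, -2.27, -2.25, -2.79 and -2.32 in ADBR3 hearts 1, 3, 5, 6 and 7, against -2.75, -2.53, -2.33 and -2.22 in WT hearts 1, 3, 4 and 6. The lowest value belonged to ADBR3 heart 6 and the highest to WT heart 6, and the difference was 0.01 (95% confidence interval -0.31 to 0.34, limma adjusted p = 0.982). A second probe (rn4 chr20:6543425-6543484) read -3.42, -3.11, -3.22, -3.08 and -3.11 in the ADBR3 hearts and -3.32, -3.53, -3.31 and -3.21 in the WT hearts. There 3 of the 5 ADBR3 hearts lay above all WT hearts, and heart 5 lay just below WT heart 6, while ADBR3 heart 1 lay among the lowest. The difference of that probe was 0.16 (95% confidence interval -0.05 to 0.36, limma adjusted p = 0.605), or -0.07 with the slide as a block, which compares within slides 1 and 3 only. On that probe the labelings of 1 rat differed by 0.217 in the ADBR3 group and 0.164 in the WT group. ADBR3 heart 6 was the lowest of all hearts on the first probe and the highest on the second, so the probes did not order the rats alike.

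Pparg encodes PPARγ, the regulator of fat cell differentiation, whose transcript is low in cardiomyocytes and abundant in adipose tissue. Its probe (rn4 chr4:151617128-151617187) read -0.47, -0.44, -0.42, -0.09 and -0.43 in ADBR3 hearts 1, 3, 5, 6 and 7, against -0.56, -0.57, -0.46 and -0.34 in WT hearts 1, 3, 4 and 6. ADBR3 heart 6 stood apart from the other 4 ADBR3 hearts, which lay within 0.05 of each other and within the range of the WT hearts. The means were -0.37 ± 0.160 in ADBR3 hearts (SD, n = 5) and -0.48 ± 0.110 in WT hearts (SD, n = 4), a difference of 0.11 (SE 0.091, 95% confidence interval -0.09 to 0.32, limma adjusted p = 0.714). Without ADBR3 heart 6 the difference was 0.04, and with the slide as a block, which compares within slides 1 and 3 only, it was -0.02.

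Several markers of fat cells and of atrial muscle were also highest in ADBR3 heart 6, though not all. Of 12 adipocyte markers 8 were tested, and Plin1, Cidec, Lep and Ucp1 were not well above background in enough rats. The mean log2 level of the 8 was 0.50 in ADBR3 heart 6, -1.25 to -0.14 in the other ADBR3 hearts and -0.98 to -0.17 in the WT hearts. That mean leans in part on values near background. Pck1 was well above background in 2 of 5 ADBR3 and 2 of 4 WT rats, Adipoq in 4 of 5 and 3 of 4, and Retn in 5 of 5 and 3 of 4. Adipoq, the fat cell hormone adiponectin, read -0.46 in ADBR3 heart 6, -6.53 to -1.66 in the other ADBR3 hearts and -4.12 to -2.71 in the WT hearts. Retn, Pck1 and Dgat2 were highest in that heart too, at -0.32, -3.21 and 0.20, though Dgat2 was nearly as high in ADBR3 heart 3, at 0.17. The other 4 were not: Cidea (5.30) and Fabp4 (3.32) were highest in WT heart 6 and Cfd (1.95) in WT heart 4, and Lipe was lowest of all in ADBR3 heart 6, at -2.40. The summed linear signal of the 8 markers, to which Cidea and Fabp4 contribute most, did not single out that heart, with 40.5 to 51.2 in ADBR3 hearts and 47.0 to 54.6 in WT hearts. The 4 atrial markers Nppa, Myl7, Myl4 and Sln summed to 420.8 in ADBR3 heart 6, to 208.9 to 255.3 in the other ADBR3 hearts and to 205.2 to 267.1 in the WT hearts. Nppa, Myl7 and Sln were highest in ADBR3 heart 6, whereas Myl4 was highest in ADBR3 heart 7, at 7.45 against 7.41 in ADBR3 heart 6. Of the adipocyte markers 5 were higher and 3 lower in ADBR3 hearts and 0 passed the adjusted limma p of 0.05. Dgat2 had the smallest, 0.348, with a difference of 0.35 between the groups. The part of such tissue in the Pparg value was not tested.

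Rxra encodes the retinoid X receptor α, the obligate DNA-binding partner of the PPARs. The probe whose sequence is given above read -3.26, -3.20, -3.11, -3.18 and -3.30 in ADBR3 hearts 1, 3, 5, 6 and 7, against -3.31, -3.23, -3.08 and -3.06 in WT hearts 1, 3, 4 and 6. All 9 hearts lay within 0.258 log2 units. The difference was -0.04 (SE 0.069, 95% confidence interval -0.20 to 0.12, limma adjusted p = 0.879), and the ratio in the interval ran from 0.873 to 1.09. The pair of WT labelings of heart 1 alone differed by 0.266, as much as the whole range between rats, whereas the ADBR3 pair differed by 0.0069.

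Ppargc1a encodes PGC-1α, the coactivator that cold, exercise and adrenergic signalling induce in brown fat and muscle. It read -1.74, -1.75, -1.50, -2.08 and -1.59 in ADBR3 hearts 1, 3, 5, 6 and 7, against -1.80, -1.54, -1.56 and -1.68 in WT hearts 1, 3, 4 and 6. ADBR3 heart 6 was the lowest and ADBR3 heart 5 the highest of all, so the WT range lay inside the ADBR3 range. The means were -1.73 ± 0.222 in ADBR3 hearts (SD, n = 5) and -1.64 ± 0.122 in WT hearts (SD, n = 4), a difference of -0.09 (SE 0.116, 95% confidence interval -0.35 to 0.17, limma adjusted p = 0.822). Without ADBR3 heart 6 the difference was -0.0029. Within the slides and scan days that held both groups, the difference was below 0 in 5 of 5, between -0.26 and -0.03. These values are not separate, since slide 3 was scanned on day 1 and slides 1 and 4 on day 2, so that rats are shared.

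Ppargc1b encodes PGC-1β, the close relative that sustains basal mitochondrial gene expression. Its levels were 1.06, 0.93, 0.88, 0.53 and 0.88 in ADBR3 hearts 1, 3, 5, 6 and 7, against 0.88, 0.90, 1.16 and 1.02 in WT hearts 1, 3, 4 and 6. Again ADBR3 heart 6 lay below all the others, and the remaining 8 hearts were interleaved. The difference was -0.14 (SE 0.106, 95% confidence interval -0.38 to 0.10, limma adjusted p = 0.696), the lowest among the 8 regulators, and -0.06 without ADBR3 heart 6. The labelings of 1 rat differed by 0.0416 in the ADBR3 group and 0.050 in the WT group, less than the rats differed from each other. Within slides and scan days it lay between -0.41 and 0.08, below 0 in 4 of 5.

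Esrra encodes ERRα, the orphan receptor through which PGC-1 proteins act on genes of oxidative phosphorylation. Its probe (rn4 chr1:209587731-209587790) was printed in 10 spots per array, whose SD was 0.0391 to 0.0608 log2 units, and its processed signal of 13115 to 16614 was far above background on all arrays. It read 4.07, 4.07, 4.21, 3.98 and 4.14 in ADBR3 hearts 1, 3, 5, 6 and 7, against 4.13, 4.05, 4.13 and 4.19 in WT hearts 1, 3, 4 and 6. These were the tightest values of the group: the SD within groups was 0.074, and 17.7% of genes had an SD no larger. The difference was -0.03 (SE 0.058, 95% confidence interval -0.16 to 0.10, limma adjusted p = 0.873), and the ratio in the interval ran from 0.893 to 1.07.

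Esrrb and Esrrg encode ERRβ and ERRγ, the relatives of ERRα; ERRγ is known from the heart, where it directs genes of oxidative metabolism together with ERRα. The Esrrb probe (rn4 chr6:110635092-110635151) was well above background on 1 of 7 ADBR3 arrays, heart 5, and on 0 of 6 WT arrays. The Esrrg probe (rn4 chr13:104404626-104404685) was well above background on 1 of 7 ADBR3 arrays, heart 1, and on 0 of 6 WT arrays. Neither was tested and neither has a fold, since both groups were below background. The processed signals of the Esrrg probe were 6.83 to 26.0 over the 13 arrays, and those of the Esrrb probe 5.26 to 23.5. A value below background on these arrays does not show that the transcript was absent.

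Nrf1 encodes nuclear respiratory factor 1, which binds promoters of respiratory chain and mitochondrial import genes. Its brighter probe (rn4 chr4:57030517-57030576) read -2.42, -2.52, -2.58, -2.23 and -2.34 in ADBR3 hearts 1, 3, 5, 6 and 7, against -2.25, -2.35, -2.22 and -2.55 in WT hearts 1, 3, 4 and 6. The groups overlapped over most of their range, with a difference of -0.07 (95% confidence interval -0.28 to 0.14, limma adjusted p = 0.823). The second probe (rn4 chr4:57048071-57048130) read -2.45, -2.90, -2.67, -2.76 and -2.60 in the ADBR3 hearts and -2.88, -2.68, -2.69 and -2.99 in the WT hearts. It differed in the other direction, by 0.13 (95% confidence interval -0.10 to 0.37, limma adjusted p = 0.692), and the intervals of both probes hold 0. The labelings of 1 rat differed by 0.487 on the second probe in the ADBR3 group and by 0.247 in the WT group, against 0.132 and 0.0530 on the first, so the second probe was also the less repeatable.

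**Figure D2:**
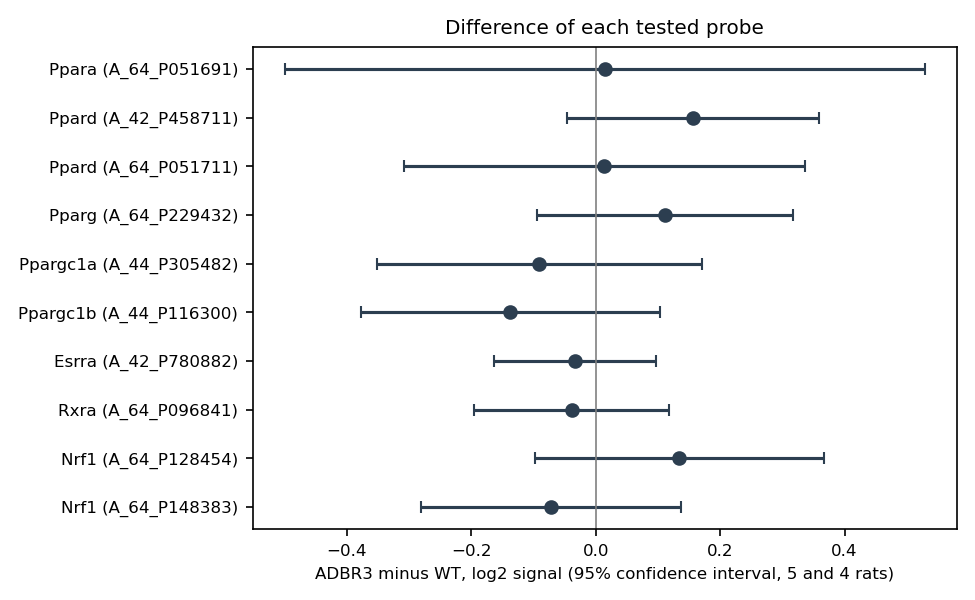
Difference of each of the 10 tested probes, in log2 signal (horizontal axis), ADBR3 minus WT. Points are limma estimates from 5 ADBR3 and 4 WT rats and bars are 95% confidence intervals; all 10 bars cross 0, the widest being that of Ppara (-0.50 to 0.53) and the narrowest that of Esrra (-0.16 to 0.10).

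Heart by heart, ADBR3 heart 6 was the extreme most often among the 8 regulators, each taken by its brighter probe. It was the lowest of the 9 for 4 of them, Ppard, Ppargc1a, Ppargc1b and Esrra, and the highest for Pparg. WT heart 4 was the highest for 3, Ppara, Ppargc1b and Nrf1. Over the 9 hearts, 36 relations were computed, between all pairs of the 8 genes and of each gene with the mean of the PPAR target genes described below, with exact permutation p-values. After Benjamini-Hochberg adjustment 0 of 36 passed 0.05 by Pearson's r or by Spearman's rho, and the smallest adjusted p for r was 0.320. Ppard and Ppargc1a gave r = 0.69 (exact permutation p = 0.0302) and rho = 0.55 (exact permutation p = 0.133), but r was 0.12 without ADBR3 heart 6 and WT heart 1, so that the relation rests on those hearts. Ppara and Rxra gave r = 0.70 (exact permutation p = 0.0448) and rho = 0.75 (exact permutation p = 0.0255), and r was 0.54 without ADBR3 heart 1 and WT heart 1. Ppard and Nrf1 gave r = -0.68 (exact permutation p = 0.0490) and rho = -0.72 (exact permutation p = 0.0369), and r was -0.43 without ADBR3 heart 6 and WT heart 1. Ppard and Esrra gave r = 0.66 (exact permutation p = 0.0569) and rho = 0.73 (exact permutation p = 0.0311). For that pair r was 0.74 without ADBR3 heart 6 and WT heart 1. All these pairs had an adjusted p of 0.320 for r.

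The genes whose pattern over the 9 hearts was most like that of 3 central regulators were looked up among 11075 tested gene symbols. These are the highest of many correlations over 9 hearts that share arrays and scaling, and are given as a description. For Ppara they were Cluap1 (r = 0.980), a protein of ciliary transport, Aif1 (r = 0.966), a calcium-binding protein of macrophages, and Polr1c (r = 0.956), a subunit of RNA polymerases I and III. Aif1 read 0.84, 0.98, 1.29, 1.21 and 1.16 in ADBR3 hearts 1, 3, 5, 6 and 7, against 0.86, 0.98, 1.37 and 1.21 in WT hearts 1, 3, 4 and 6. As with Ppara itself, hearts 1 and 3 of both groups were the lowest. For Ppargc1a they were Ppp2r5c (r = 0.977), a regulatory subunit of protein phosphatase 2A, Mras (r = 0.959), a small GTPase of the Ras family, and Akap17b (r = 0.959). Mras read -1.26 in ADBR3 heart 6, the lowest of all hearts as for Ppargc1a, and between -1.02 and -0.64 in the others. For Esrra they were Gcsh (r = 0.947), the H protein of the glycine cleavage system, Slc11a2 (r = 0.938), an iron transporter, and Hars2 (r = 0.934), the histidyl-tRNA synthetase of mitochondria.

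**Figure D3:**
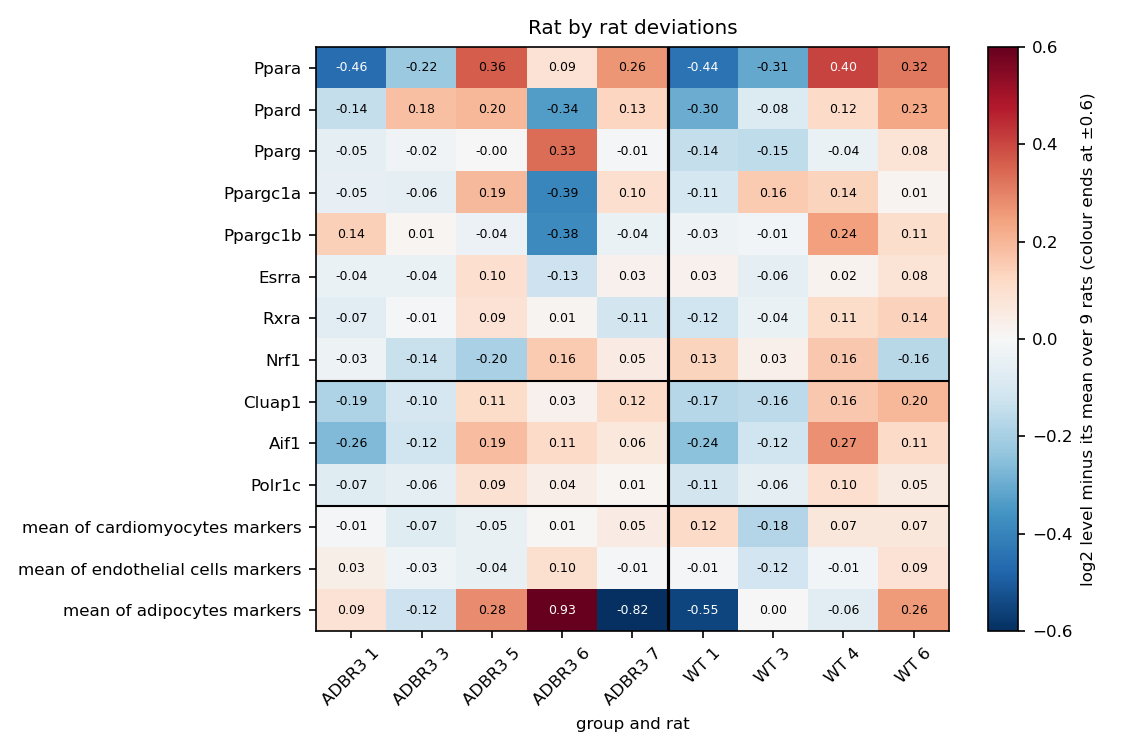
Deviation of each heart from the mean of the 9 hearts in log2 units, as colour and number, for the 8 tested regulators (top block), the 3 genes most like Ppara (middle) and the mean of cardiomyocyte, endothelial and adipocyte markers (bottom), with ADBR3 hearts left of the line and WT hearts right of it. Ppara is low in hearts 1 and 3 of both groups (-0.46 and -0.22 in ADBR3, -0.44 and -0.31 in WT), and ADBR3 heart 6 has 0.33 for Pparg, -0.39 for Ppargc1a and 0.93 for the adipocyte markers.

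Partners and coregulators of these receptors showed no call either. Of 33 genes, 30 were tested, of which 16 were higher and 14 lower in ADBR3 hearts, 0 passed the adjusted limma p of 0.05, and the median difference was 0.0067. At an unadjusted limma p under 0.05, 2 were lower, Nrip1 and Cited4, against 6.29% of all genes. The 1 higher gene was Thrb, against 3.15% of all genes, and it entered the test only through the ADBR3 group. Nrip1, the corepressor RIP140, averaged -1.85 ± 0.126 in ADBR3 hearts and -1.52 ± 0.310 in WT hearts (SD, n = 5 and 4), a difference of -0.33 (limma adjusted p = 0.509). Cited4, a CBP/p300-binding coactivator, averaged -2.10 ± 0.151 in ADBR3 hearts and -1.82 ± 0.189 in WT hearts (SD, n = 5 and 4), a difference of -0.28 (limma adjusted p = 0.483). Thrb, a thyroid hormone receptor, was well above background in 4 of 5 ADBR3 rats (5 of 7 arrays) and in 0 of 4 WT rats (1 of 6 arrays), so no difference is read from it. Klf15, a transcription factor that acts with PPARα on lipid metabolism, averaged 2.12 ± 0.167 in ADBR3 hearts and 1.84 ± 0.257 in WT hearts (SD, n = 5 and 4), a difference of 0.28 (limma adjusted p = 0.529). The brightest partners, the retinoid X receptor Rxrg and the muscle coregulator Perm1, differed by 0.01 and -0.06.

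Kinases and activators that are known to act on PGC-1α or its gene were measured by 18 genes, all tested, with 11 higher, 7 lower, 0 called and a median difference of 0.02. At an unadjusted limma p under 0.05 there were 0, against 9.44% of all genes. Mef2a, a transcription factor at the Ppargc1a promoter, differed by -0.19 (limma adjusted p = 0.526), and by 0.06 with the slide as a block. Map2k6, the kinase that activates p38, differed by 0.19 (limma adjusted p = 0.541). Creb1, the transcription factor of the cAMP pathway, differed by -0.13 (limma adjusted p = 0.559). Mapk14, p38α itself, differed by 0.10 and Prkab1, a subunit of the AMP-activated kinase, by 0.08.

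More PPAR target genes were higher than lower in ADBR3 hearts, without a call. Of 36 genes 35 were tested, with 23 higher, 12 lower, 0 called and a median difference of 0.05, where 46.7% of all genes were higher. Per rat, the mean log2 level of the 35 was 2.23 to 2.34 in ADBR3 hearts and 2.15 to 2.31 in WT hearts, so the groups overlapped. At an unadjusted limma p under 0.05, 1 of the 35 was higher, Plin5, against 3.15% of all genes, and 1 lower, Vldlr, against 6.29%. Vldlr, the receptor for triglyceride-rich lipoproteins, read -2.41, -2.36, -2.33, -2.42 and -2.39 in ADBR3 hearts 1, 3, 5, 6 and 7, against -2.28, -1.98, -2.20 and -1.82 in WT hearts 1, 3, 4 and 6. All ADBR3 hearts lay below all WT hearts, a separation that 3.52% of all genes show in either direction. The difference was -0.31 (SE 0.090, limma adjusted p = 0.373). Plin5, which coats lipid droplets in oxidative tissues, averaged -0.32 ± 0.120 in ADBR3 hearts and -0.53 ± 0.163 in WT hearts (SD, n = 5 and 4), a difference of 0.21 (limma adjusted p = 0.525). Acaa2, the thiolase of mitochondrial β-oxidation, differed by 0.25 (limma adjusted p = 0.529) and Cyp4b1 by 0.20 (limma adjusted p = 0.571). The most strongly signalling genes of the list, Acadl and Fabp3, an acyl-CoA dehydrogenase and the fatty acid-binding protein of heart, differed by -0.01 and -0.03.

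Targets of PGC-1, the ERRs and NRF1, the genes of the respiratory chain, the citric acid cycle and mitochondrial upkeep, were 38 genes, of which 37 were tested. Of these 15 were higher and 22 lower, 0 were called, and the median difference was -0.0072, close to that of all genes. Ogdh, a subunit of 2-oxoglutarate dehydrogenase, the 1 gene of 37 with an unadjusted limma p under 0.05, where 9.44% of all genes had one, differed by 0.12 (limma adjusted p = 0.526). Mfn2, the mitofusin that joins mitochondrial outer membranes, read 2.24, 2.26, 2.24, 2.24 and 2.23 in ADBR3 hearts 1, 3, 5, 6 and 7, against 2.20, 2.08, 2.16 and 2.21 in WT hearts 1, 3, 4 and 6. The groups did not overlap, with a difference of 0.08 (limma adjusted p = 0.583), and the separation from WT heart 6 was narrow; it was 1 gene of 37 without overlap, where 3.52% of all genes have none. Cox8b, a subunit of cytochrome c oxidase, differed by -0.11 (limma adjusted p = 0.529), and Tfb1m, a methyltransferase of the mitochondrial ribosomal RNA, by -0.13 (limma adjusted p = 0.555). Cox6a2 and Atp5a1, subunits of cytochrome c oxidase and of ATP synthase, differed by -0.09 and -0.07. In the promoter windows of this list, 6 of 30 held the NRF1 core shown above for Esrra and Ppara, against 2.78% of all. They were those of Alas1, Cisd1, Cycs, Sdhb, Tfb2m and Uqcrc1. Because the list was chosen to hold targets of NRF1, this count describes the choice of genes. The ERR element was in 0 of the same 30, against 0.442% of all. The PPAR and RXR element was in 0 of 27 windows of the PPAR target list, against 0.0621% of all. The NRF1 core was in 0 of 27 windows of the partners, 0 of 17 of the kinases and activators, and 0 of 27 of the PPAR targets.

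**Figure D4:**
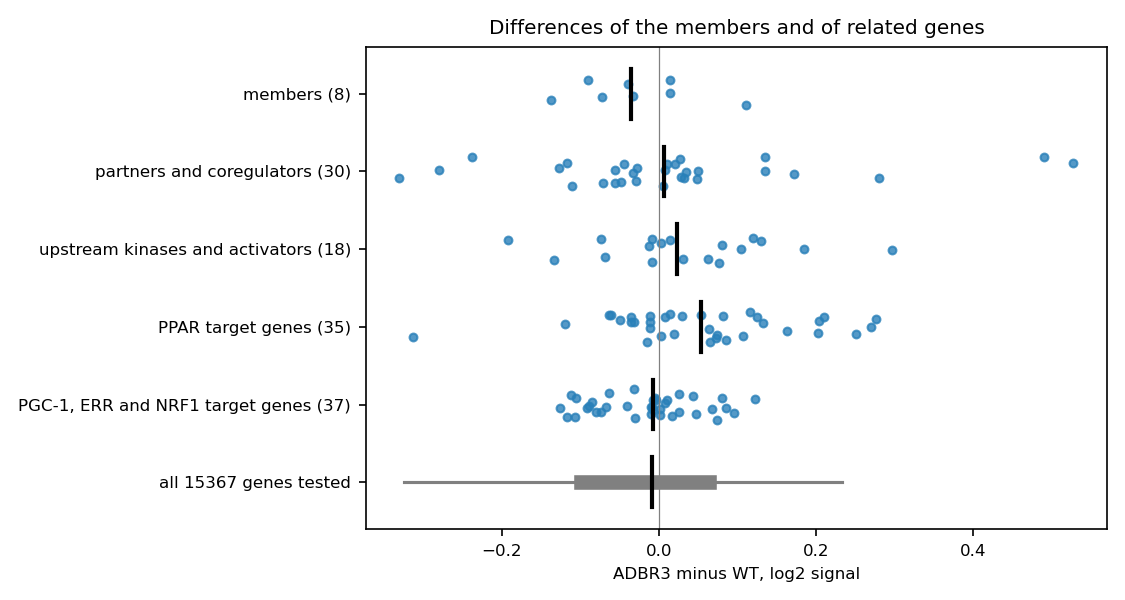
Differences in log2 signal, ADBR3 minus WT (horizontal axis), of the tested members and of 4 lists of related genes; each point is 1 gene, the vertical bar is the median, and the number of genes stands in the row label. The bottom row gives all 15367 genes tested, with the median, the 25th to 75th percentile (thick line) and the 5th to 95th percentile (thin line). The medians lie at -0.036 for the regulators, 0.0067 for partners, 0.02 for kinases, 0.05 for PPAR targets and -0.0072 for PGC-1, ERR and NRF1 targets.

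Slides and scan days held both groups in part, and the comparison could be repeated inside them, with 1 to 3 rats a side; these values are given without a test. Slides 1, 3 and 4 and both scan days gave a value each, that of slide 4 against the WT repeat hybridization, which is left out of the main comparison. Each of these slides was scanned on 1 of the days, so values of slides and days share rats. Ppara lay between -0.51 and 0.11, Ppard between -0.16 and 0.01, Pparg between -0.06 and 0.15 and Rxra between -0.22 and 0.02. Esrra lay between -0.11 and 0.01 and Nrf1 between -0.22 and 0.05. Of the 8 regulators, 7 had values on both sides of 0, and Ppargc1a was the exception. With the slide as a block in the limma fit and the repeats left out, only slides 1 and 3 held both groups. The differences of that fit thus rest on ADBR3 hearts 1 and 7 against WT hearts 1, 4 and 6. ADBR3 rat 1 entered it, and the fit with the scan day as a block, as 2 values, since its labelings lay on different slides and days. Ppara differed by -0.34 with the slide as a block, and 0 of the 8 passed the adjusted limma p of 0.05.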

How the data were processed

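Left ventricular RNA of 5 ADBR3 and 4 WT rats was measured on 13 one-colour Agilent arrays. The deposited scanner files hold spot intensity from Feature Extraction 10.7.1.1 (array build rn4, per the file headers), whose processed signal is background-subtracted. The authors' deposited series table holds natural log values for 20000 of the 30367 probes, 11 of the 12 regulator probes among them. Its natural log values followed the scanner's median signal (r of 0.9988 or more), the sources used here do not give how its arrays were scaled, and its column medians were 5.695 to 5.73. It served as an alternative.

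From the scanner files, log2 processed signal minus the array's 75th percentile was averaged over the spots of a probe, leaving out outlier spots. Probes well above background (at least 0.5 of the spots, on all arrays of a rat) in at least 4 of 9 rats were kept, 17587 in all, and the probe with the highest mean stood for its gene. Repeat hybridizations were left out of the comparison. Differences were fitted in R 4.3.3 by limma 3.58.1 (lmFit, eBayes) with Benjamini-Hochberg adjustment at 0.05, tested on simulated data. Sequences, motifs and plots used Python 3.11.15, pandas 2.3.3, numpy 2.4.6 and matplotlib 3.10.9. The number of arrays limits the precision. Same-numbered hearts of both groups were not taken as pairs: their deviations from the group means correlated by 0.106, 0.0347 and 0.124 for hearts 1, 3 and 6, not all above 0.1. The highest correlation with a heart of another number was 0.0062, 0.0259 and -0.050 in turn, lower each time. These values thus do not settle whether the hearts were paired. A fit on hearts 1, 3 and 6 with the number as a block is given below as an alternative. An effect of the heart number itself was not tested.

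The members, the gene lists and the tests were chosen with earlier results of these data known. Named from each list were the genes past the threshold or, failing these, the 4 with the smallest unadjusted p and the 2 with the highest signal, and for Ppara, Ppargc1a and Esrra the 3 symbols with the highest r. Alternatives changed the scaling, background correction, filter on dim probes, source of values, repeat hybridizations, slide, scan day, variance model, heart number and probe choice, or left out 1 rat at a time.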

Additional observations from a re-analysis of the deposited data

Results flagged for a closer look

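Of 74 sets of values from 1 group of 4 or 5 rats that were looked at, 6 (8.11%) held a rat far from the others by Dixon's criterion, where chance alone gives about 1 in 20 such sets. Among the regulators this was Pparg in ADBR3 heart 6, at -0.088, with the other ADBR3 hearts between -0.47 and -0.42. The others concern WT hearts. The mean of the PGC-1, ERR and NRF1 target genes was 5.03 in WT heart 3, with the other WT hearts at 5.14, and Atp5a1 was 8.53 there, with the others between 8.77 and 8.81. In WT heart 4, Mapk14 was 3.79, with the others between 3.65 and 3.67, Creb1 was -2.39, with the others between -2.63 and -2.60, and Fabp3 was 7.35, with the others between 7.47 and 7.49. The mean of the cardiomyocyte markers was also lowest in WT heart 3, at 7.68 against 7.92 to 7.97 in the other WT hearts. Its part in these values was not tested.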

How the results depend on the processing

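Under all 23 alternatives 0 of the tested regulators passed the adjusted limma p of 0.05, and 0 of the list genes did under the 22 in which the lists were recomputed. The smallest adjusted limma p of a regulator was 0.554 (Pparg, median scaling), and between 0 and 5 of the 8 genes were higher in ADBR3 hearts. Relations between the regulators, recomputed under 5 settings chosen after seeing the data, gave 0 of 36 in each. For comparison, between 0 and 12 of all genes were called (1 in the comparison as reported, 8 with trended and robust variance, 12 without ADBR3 heart 3). Median scaling moved the median of all genes to 0.03.

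Some signs turned, and the cause was not tested. With median scaling Esrra was 0.0081, Rxra 0.0028, Acadl 0.027 and Fabp3 0.0065. With quantile normalization Rxra was 0.0075 and Rxrg -0.012. With normexp and the 75th percentile Ppara was -0.037, Ppard -0.015 and Acadl 0.0042, and with normexp and quantile normalization Ppara was -0.015, Rxra 0.016, Acadl 0.018 and Fabp3 0.0043. The authors' deposited values gave -0.019 for Ppara and 0.014 for Acadl. Averaging in the repeat hybridizations gave -0.00091 for Ppara and -0.028 for Ppard. With the slide as a block, which compares within slides 1 and 3 only, Ppara was -0.34, Ppard -0.037 and -0.067 on its second probe, Pparg -0.020, Rxrg -0.029, Mef2a 0.060 and Acadl 0.031. With the scan day as a block Ppara was -0.096, Ppard -0.045 and Rxrg -0.019. On hearts 1, 3 and 6, with the number as a replicate block and without it, Ppara was -0.053, Ppard -0.050 and Rxrg -0.019; the block changed no call of a regulator or list gene (0 called), and 0 of all genes were called with it against 1 without. The mean of all probes gave 0.031 for Nrf1. Leaving out 1 rat at a time, Ppara ran from -0.13 to 0.15, Ppard from -0.082 to 0.10, Rxrg from -0.022 to 0.049 and Acadl from -0.056 to 0.033. The median of the partners was 0.048 with median scaling, -0.028 with normexp and the 75th percentile and -0.030 with the slide as a block. That of the PPAR targets stayed above 0 in 22 of 22 settings, from 0.0015 to 0.096. These settings draw on the same rats and are not independent.

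With 5 and 4 rats, the median standard error over all genes was 0.0864 log2 units, and that of Ppara, 0.228, leaves the widest interval. Esrrb and Esrrg are limited by signals below background.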
